A study of Homo sapiens with 16 samples.

Results

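p53 is a transcription factor that binds DNA as a tetramer and switches on genes of cell cycle arrest, cell death, DNA repair and metabolism. Its usual DNA element is a pair of half-sites, each read by a dimer, and many of its targets carry such an element close to their transcription start site (TSS). Beside the best known targets stands a long tail of genes that recur in lists of p53 targets across cell types: secreted factors, ubiquitin ligases, lipid enzymes, and regulators of mitochondria, translation and adhesion. Here 47 such genes, from *ABCA12* to *ZNF79*, were taken from all 20136 protein-coding genes by name, and p53 peaks were looked for within 25 kb of their gene bodies. The rule uses names and positions and no measured value, but the 47 names were chosen with earlier results of these data known. Of the 47, 41 had a peak in at least 1 list.

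ChIP-seq, in which DNA crosslinked to a protein is precipitated with an antibody (here DO-1, against p53) and sequenced, gave the data. The samples were MCF10A cells, an untransformed human mammary epithelial line (genotype Parental), and G12V cells, the same line after lentiviral transduction with HRAS carrying the G12V mutation and selection (genotype H-RAS Gv12). All p53 samples, parental and transformed, were given nutlin before fixation. Nutlin keeps MDM2 from binding p53 and so raises p53, which means that both groups show p53 after drug and neither shows untreated cells. The G12V cells had carried the oncogene through selection and passage, and the transduced population is 1 derivative of 1 line. Each group held 2 biological replicates, with 1 peak list each.

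The 4 p53 lists held 477 to 2619 peaks and came from libraries of 9.26 to 33.2 M reads (M, mega). G12V replicate 1 was the shallowest and its list the shortest, and all 477 of its peak names carry the word "old". G12V replicate 2 was the deepest and its list the longest. Merged over libraries, the peaks gave 2980 sites, of which 332 were called in all 4 lists. Where a list lacks a site, binding there fell short of what that depth could call, and absence was not shown.

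A peak near a member gene was frequent in each list. MCF10A replicate 1 had a peak within 25 kb of 23 members, against 7.51% of all protein-coding genes, and MCF10A replicate 2 of 15 members, against 4.06%. G12V replicate 1 had a peak near 18 members, against 2.38% of all genes, and G12V replicate 2 near 41 members, against 11.9%. Over the lists together this was 41 of 47 members, or 87.2%, against 13.2% of all genes. Member genes were longer than others, with a median length of 38240 bp against 27220 bp, so their windows were wider. Without G12V replicate 2 the number of members with a peak fell to 25, and each member seen in any list was seen in that library. The 2 cell types overlapped in this count, with a mean of 19.0 ± 5.66 members for the MCF10A lists and of 29.5 ± 16.3 for the G12V lists (SD over 2 libraries, exact two-sided permutation test, p = 0.667, where the design cannot give less than 0.333).

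For each member 1 lead site was taken, the one called in most lists. It was called in all 4 lists for 13 members, in 3 lists for 5, in 2 lists for 6, and in 1 list for 17. The 13 were *FBXO22*, *KITLG*, *LIF*, *PGF*, *PHLDA3*, *PHPT1*, *PTP4A1*, *RAP2B*, *RPS27L*, *SPATA18*, *TRIAP1*, *TRIM22* and *ZMAT3*, and 13 of 47 stands beside 1.63% of all genes with a site in all 4 lists. At least 2 lists shared a site at 24 members, against 6.81% of all genes. All 17 lead sites of 1 list were called in G12V replicate 2, and 1 of these 17 members, *VWCE*, had another site in MCF10A replicate 1, with 18 fragments. That library also was the only list for 38.5% of all 2980 sites, beside 16 of the 40 distinct member lead sites. The windows held 46 sites in all, and 5 members (*ASTN2*, *FBXW7*, *PRDM1*, *SPATA18* and *VWCE*) had more than 1.

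**Figure D1:**
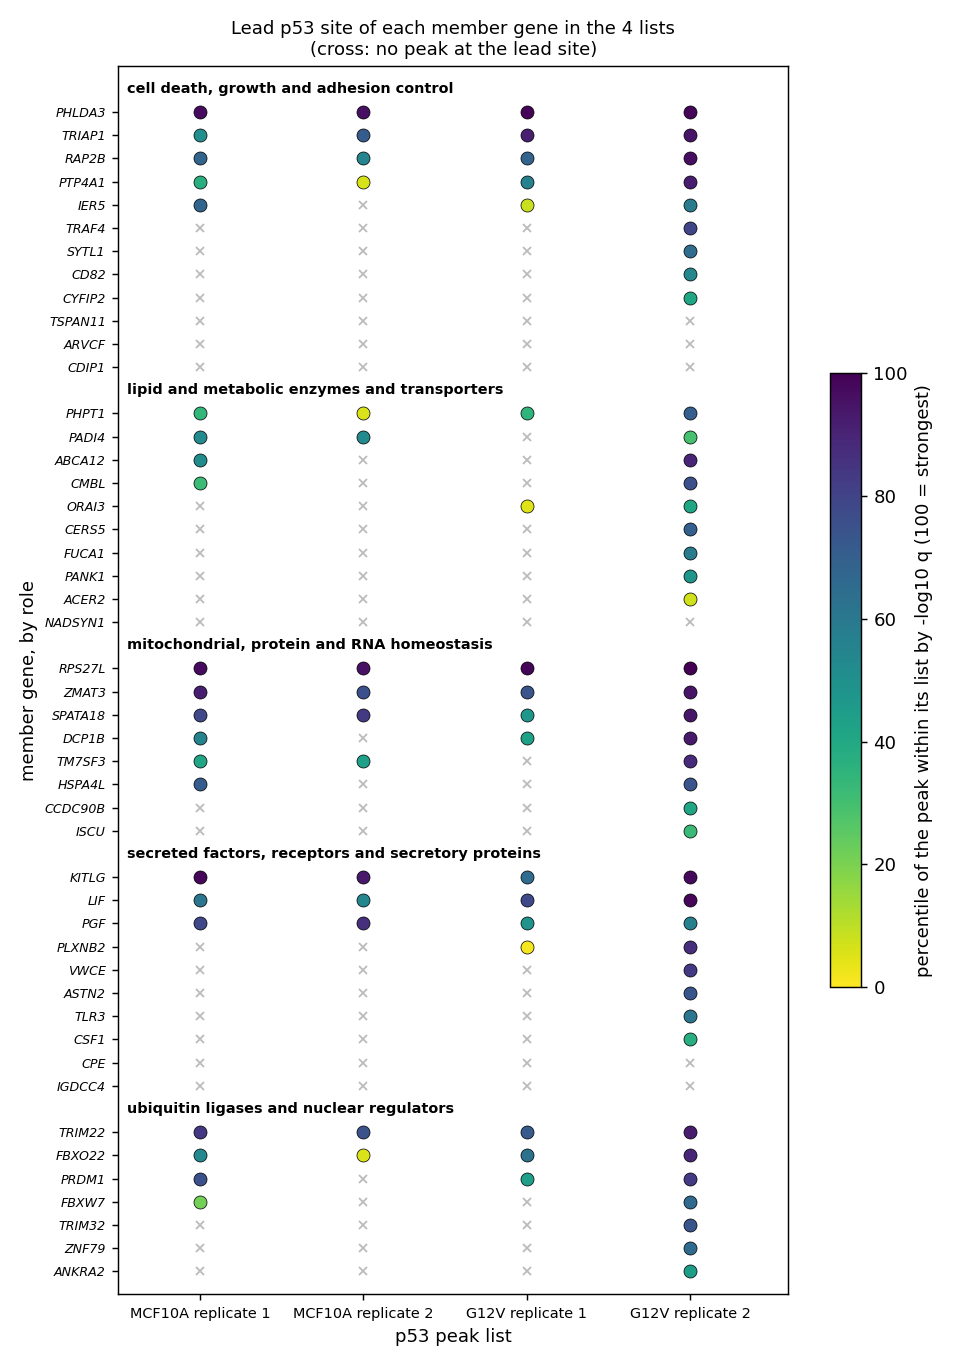
Lead p53 site of each of the 47 member genes (rows, by role) in the 4 peak lists (columns), with colour for the percentile of the peak within its list by −log10 q, where 100 is the strongest, and a cross where the list has no peak at that site. *PHLDA3* and *RPS27L* are near the top of every list, and the right-hand column, G12V replicate 2, holds the 17 members whose lead site was called in 1 list.

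30 better known p53 genes of the arrest, death and repair arms, among them *CDKN1A* and *BBC3*, give the scale. They had a peak in 19, 15, 16 and 29 of 30 cases in MCF10A replicates 1 and 2 and G12V replicates 1 and 2. A site of all 4 lists lay near 13 of the 30, or 43.3%, and near 13 of the 47 members, or 27.7%.

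The lead summits lay close to gene starts. The median distance from the lead summit to the nearest annotated start of the member was 370 bp, with a range of 2 to 20598 bp, and 28 of 41 lay within 1000 bp and 39 within 5000 bp. Counted by the edge of the site and not its summit, a site of any list reached within 1000 bp of a start for 30 of 47 members, against 1.25% of all genes, and a site of all 4 lists for 9 members, against 0.199%. The same held for 26 and 11 of the 30 better known p53 genes, or 86.7% and 36.7%, which exceed the 63.8% and 19.1% of the members. Of the lead summits 22 lay in an intron of the member, 10 in an exon, 8 upstream and 1 downstream. The largest distances were those of *KITLG*, 20598 bp into the gene, and *IER5*, an immediate early gene, with a site 11051 bp downstream of its start and past its end.

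**Figure D2:**
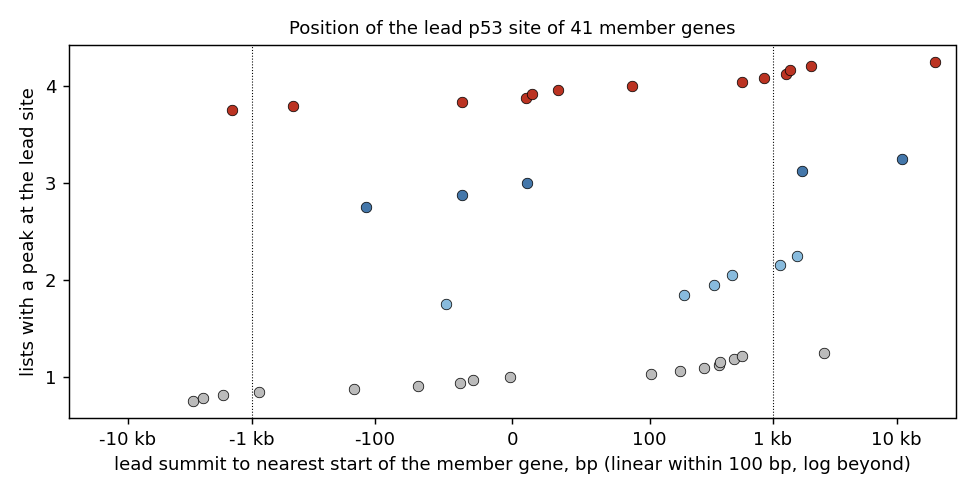
Distance from the lead p53 summit to the nearest start of the member gene (x axis, bp, linear within 100 bp and logarithmic beyond, negative upstream) for 41 genes, by the number of lists that called the site (y axis, spread for visibility). Dotted lines mark 1 kb, and 28 of the 41 points lie between them.

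*ASTN2* and *TRIM32* share 1 site at a pair of divergent starts, and the counts by gene above hold it for both. Its summit lay 69 bp from the start of *TRIM32* and 2 bp from an internal start of *ASTN2*, 727833 bp from the 5′ end of that gene. Over the 40 distinct lead sites, 67.5% lay within 1000 bp of a coding start (exact 95% interval 50.9 to 81.4%), against 6.53% of the 2940 other sites (5.66 to 7.49%). The intervals, here and below, cover counting error only. Lead sites had to lie within 25 kb of a gene body, while other sites could lie anywhere. The rule therefore fixes part of this contrast in advance, and the contrast in GC content that follows has the same limit. GC content over 150 bp was 61.0% at the median lead site and 48.7% at the median other site. In strength the lead sites stood at a median percentile of 62.6 within their lists, against 41.3 for other sites. Among sites of all 4 lists the 2 medians were 75.5 and 74.9. For the 5 members with more than 1 site, the choice of the lead by lists and rank favours the stronger site.

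The elements at member sites of all 4 lists are shown next, because they show how far these sites depart from the textbook pattern. An element was 2 adjacent 10-base half-sites with intact core C and G bases and at most 3 mismatches elsewhere, within 150 bp around the summit. The lines give the plus strand of hg19, with the 20 bases of the element in capitals and 5 bases on either side. The 7 members below had a lead site in all 4 lists and an element. *ORAI3* is added because its site was called in both G12V lists only.
ZMAT3, 0 mismatches, chr3:178787971-178788000: tgcctAGGCATGTCTGGACTTGTTTtatga
PTP4A1, 1 mismatch, chr6:64283613-64283642: aatggGAACAAGTCTAGTCTTGTCCtttct
SPATA18, 2 mismatches, chr4:52918118-52918147: aggaaGGACATGTGTGTACATGCCCttgtc
TRIM22, 3 mismatches, chr11:5711776-5711805: tactgTGACATGTCTAGGCATGTAGcaaaa
PGF, 3 mismatches, chr14:75419891-75419920: tgcgtGTGCATGTCCCTACATGCCCactct
RPS27L, 3 mismatches, chr15:63449429-63449458: tgaccGGGCAAGTCACTACATGCCCgccac
RAP2B, 3 mismatches, chr3:152878610-152878639: cgggaGCGCCAGCCCAGCCAAGTCTagcga
ORAI3, 3 mismatches, chr16:30961656-30961685: gagccAGGCATGTCAGAGCAGGTCAcgtac

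*ZMAT3* matched the pattern in full and 5 of the 8 had 3 mismatches. The element centre was between 5 and 24 bp from the summit in 6 of them, and at 47 bp in *RAP2B* and 53 bp in *ORAI3*.

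Strong binding did not always come with such an element. Over the 40 lead sites 28 held one, or 70.0% (53.5 to 83.4%), close to the 70.4% of the 2940 other sites (68.8 to 72.1%). Among sites within 1000 bp of a start, 19 of 27 lead sites held one, or 70.4% (49.8 to 86.3%), against 45.3% of the 192 other sites (38.1 to 52.6%), and these intervals overlap. In windows placed 2000 bp away the shares were 5.00% and 0.918%. Among sites of all 4 lists, however, 7 of 13 lead sites held an element, or 53.8% (25.1 to 80.8%), against 90.3% of the 319 other sites (86.5 to 93.3%), and these intervals do not overlap. Of the other sites of all 4 lists, the 26 within 1000 bp of a start held one in 76.9% of cases (56.4 to 91.0%), an interval that overlaps with that of the members, and those farther away in 91.5%. An element without mismatch was found only at *ZMAT3* among the 40 lead sites, or 2.50%, against 9.05% of other sites.

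*FBXO22*, *KITLG*, *LIF*, *PHLDA3*, *PHPT1* and *TRIAP1* were called in all 4 lists and held no adjacent pair. A wider search, added after these values were seen, allowed up to 13 bases between the half-sites and found a pair at *KITLG* and at *FBXO22*. These are printed with the half-sites in capitals and the spacer between them in lower case.
KITLG, spacer of 1 base, 1 mismatch, chr12:88953582-88953612: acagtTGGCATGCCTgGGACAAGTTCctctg
FBXO22, spacer of 13 bases, 0 mismatches, chr15:76196464-76196506: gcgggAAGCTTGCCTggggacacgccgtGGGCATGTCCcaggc

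With adjacent pairs counted as well, this search found a pair at 80.0% of lead sites and 80.8% of other sites. Adjacent pairs alone gave 70.0% and 70.4%. In windows 2000 bp away the wider search found a pair at 20.0% and 5.31%, against 5.00% and 0.918% for adjacent pairs alone. The wider search thus also found more pairs away from the summits. *PHLDA3*, *TRIAP1*, *LIF* and *PHPT1* held neither form, which says only that these letters were not in the window. Per RefSeq (GRCh38.p14), which gave a promoter of 250 bases before to 50 after the start for 41 of the 47 members, an adjacent element lay in 3 promoters, those of *DCP1B*, *RPS27L* and *TRIM32*. That is 7.32% of the members found and 1.06% of all 27305 promoters.

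Other motifs were rare at the members. The AP-1 motif, TGACTCA or TGAGTCA on either strand, lay at 4 of 40 lead sites, those of *ABCA12*, *CD82*, *SYTL1* and *TLR3*, or 10.0% (2.79 to 23.7%), against 6.67% of other sites. A CTCF peak of the same study overlapped 1 lead site, that of *CYFIP2* in G12V cells, or 2.50% (0.0633 to 13.2%), against 3.10% of other sites. Both intervals include the share of the other sites.

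The strength of a site is given below as the number of fragments piled up at its summit, recovered from the fold enrichment and p-value of the peak. Values follow the order MCF10A replicates 1 and 2, then G12V replicates 1 and 2. Raw fragments cannot be compared between libraries, whose depths were 21.4, 20.1, 9.26 and 33.2 M reads, so ranks within each list, where 1 is the strongest, stand beside them. The lists hold 1718, 885, 477 and 2619 peaks, so ranks say where a site stood in its own list and are not set against each other between lists. Strength on a common scale follows after the groups.

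Genes of cell death, growth and adhesion control gave 9 of 12 members with a peak and 4 in all lists. *PHLDA3*, a repressor of AKT that competes for membrane lipids, carried 82, 49, 81 and 251 fragments at chr1:201437361-201438628, across its start. Its ranks were 54, 39, 5 and 34, at percentiles of 95.7 to 99.2. *TRIAP1*, a small mitochondrial protein that counters apoptosis, had 24, 21, 39 and 145 fragments at chr12:120883778-120884532, where the start of the neighbouring gene *GATC* lies 93 bp from the summit. Its ranks were 848 and 254 in the MCF10A lists and 41 and 135 in the G12V lists. *RAP2B*, a small GTPase of the RAS family, had 27, 22, 27 and 150 fragments upstream of its start at chr3:152878281-152878887. *PTP4A1*, a prenylated phosphatase linked to cell growth and migration, had 18, 16, 27 and 110 fragments at chr6:64283351-64283918, near an internal start. Its ranks were 1087 and 831 in the MCF10A lists and 208 and 213 in the G12V lists. *IER5* was called in 3 lists, and *CD82*, *CYFIP2*, *SYTL1* and *TRAF4* in G12V replicate 2 alone, with 32 to 70 fragments. *ARVCF*, *CDIP1* and *TSPAN11* had no peak within the window. The nearest site to *CDIP1*, a pro-apoptotic gene, lay 87036 bp from it, and those of *TSPAN11* and *ARVCF* over 300 kb away.

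Genes of mitochondrial, protein and RNA homeostasis all had a peak, 8 of 8, and 3 in all lists. *RPS27L*, a relative of ribosomal protein S27, had 82, 42, 70 and 258 fragments at chr15:63449012-63449872 and ranks of 54, 40, 7 and 9. It had the most fragments of any member in G12V replicate 2, as *PHLDA3* had in G12V replicate 1 and *KITLG* in both MCF10A libraries. *ZMAT3*, an RNA-binding zinc finger protein, had 68, 25, 24 and 141 fragments at chr3:178787718-178788241, with ranks of 146, 217, 126 and 136. *SPATA18*, a protein of mitochondrial quality control, had 36, 27, 17 and 126 fragments at chr4:52917575-52918499, and a second site 6005 bp past its start with 26 fragments in MCF10A replicate 1 and 33 in G12V replicate 2. The percentile of *SPATA18* within the lists ranged from 46.8 in G12V replicate 1 to 94.2 in G12V replicate 2. *DCP1B*, of the mRNA decapping complex, was called in 3 lists, as was *TM7SF3*, while *HSPA4L*, a heat shock protein, was called in 2. *CCDC90B* and *ISCU*, the scaffold of iron-sulfur cluster assembly, were called in G12V replicate 2 only, at 35 and 27 fragments.

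Secreted factors, receptors and secretory proteins had a peak in 8 of 10 cases and in all lists in 3. *KITLG*, the ligand of the KIT receptor, had 84, 52, 21 and 170 fragments at chr12:88953366-88953974, within its body. Its ranks were 34, 57, 168 and 70, and its percentiles within the lists, 98.1 and 93.7 in MCF10A and 65.0 and 97.4 in G12V, overlapped between the cell types. *LIF*, a cytokine of the interleukin 6 family, had 33, 19, 37 and 170 fragments at chr22:30641617-30642272, with ranks of 669, 409, 104 and 46. *PGF*, a growth factor of the VEGF family, had 41, 28, 19 and 45 fragments at chr14:75419598-75420098, with ranks of 373 and 124 in MCF10A and 246 and 1132 in G12V. *PLXNB2*, a receptor for semaphorins, was called in G12V lists only, with 10 and 97 fragments at chr22:50744255-50744627. The first of these was the lowest number that was called in that library, and its rank was 471 of 477. *ASTN2*, *CSF1*, *TLR3* and *VWCE* were called at their lead site in G12V replicate 2 alone, with 29 to 78 fragments. *CPE* and *IGDCC4* had none.

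Ubiquitin ligases and nuclear regulators had a peak in 7 of 7 cases. *TRIM22*, an interferon-induced protein, had 48, 23, 27 and 110 fragments at chr11:5711244-5712209, with ranks of 282, 228, 137 and 199. *FBXO22*, the substrate receptor of an SCF ubiquitin ligase, had 21, 11, 22 and 90 fragments at chr15:76196102-76196809. Its ranks were 812 and 835 in the MCF10A lists, the latter among the last of 885 peaks, and 178 and 278 in the G12V lists. *PRDM1*, a transcriptional repressor, was called in 3 lists and *FBXW7*, another SCF receptor, in 2, both at internal starts, 11 and 189 bp away. *ANKRA2*, *TRIM32* and *ZNF79* were called in G12V replicate 2 alone, and the summit at *ANKRA2* lay 9 bp from the start of *UTP15*.

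Lipid and metabolic enzymes and transporters had a peak in 9 of 10 cases, at 22 to 100 fragments in G12V replicate 2. *PHPT1*, a histidine phosphatase, was the 1 member called in all lists, with 16, 13, 15 and 70 fragments at chr9:139743707-139744217 and ranks of 1131, 836, 311 and 786. *ORAI3*, a subunit of calcium channels of the plasma membrane, was called in G12V lists only, with 11 and 36 fragments at chr16:30961497-30961904. Its rank in G12V replicate 1 was 454 of 477, so it too was near the limit of calling. *PADI4*, which citrullinates proteins, was called in 3 lists, and *ABCA12*, a lipid transporter of the skin, and *CMBL* in MCF10A replicate 1 and G12V replicate 2. *ACER2* and *CERS5* of ceramide metabolism, *FUCA1* and *PANK1* were called in G12V replicate 2 alone, at 22 to 47 fragments. The 22 of *ACER2* was the lowest among the members there, at rank 2430 of 2619.

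Whether member binding follows the cell type was asked first by presence. No member had a site in both MCF10A lists and no G12V list, against 0.278% of all genes, and 2 members, *ORAI3* and *PLXNB2*, had one in both G12V lists and no MCF10A list, against 0.278% as well. Both calls in G12V replicate 1 were near its limit, and at a −log10 q of at least 5 neither was left. The lists differ in length, so each was also reduced to its 477 strongest peaks. Then 8 and 11 members had a peak in MCF10A replicates 1 and 2, against 2.11% and 2.23% of all genes, and 18 and 17 members in G12V replicates 1 and 2, against 2.38% and 2.39%. Means were 9.50 ± 2.12 members for MCF10A and 17.5 ± 0.707 for G12V (SD over 2 libraries). The groups did not overlap, and the exact two-sided permutation test gave p = 0.333, the smallest it can give. No such count was made for the better known p53 genes or for other genes with a site near their start. Whether the shift is particular to the members was not tested. *KITLG*, *PHLDA3*, *RPS27L*, *SPATA18*, *TRIM22* and *ZMAT3* were among the 477 strongest of every list. *DCP1B*, *FBXO22*, *PLXNB2* and *PTP4A1* were among them in both G12V lists and no MCF10A list. In the full lists *FBXO22* and *PTP4A1* were called in all 4. The share of all genes in either class was not counted, so these members have no background beside them.

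Presence was then replaced by strength at the 332 sites of all 4 lists. Fragments were scaled to depth and each library was centred on its median site, so that a value of 0 is the median site of that library and a difference is a change in relative strength on the log2 scale. At 10 of 13 member sites the difference, G12V minus MCF10A, was positive, against 50.3% of the sites with a value in every library. The median was 0.59 on the log2 scale at the member sites and 0.01 over all 332 sites. By limma with Benjamini-Hochberg adjustment over all 332 sites, 5 member sites rose in G12V, against 14.5% of all sites, and 2 fell, against 12.7%. In 8 of 13 both G12V replicates lay above both MCF10A replicates, against 33.8% of the sites with a value in every library, and in 2 both lay below, against 28.7%.

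**Figure D3:**
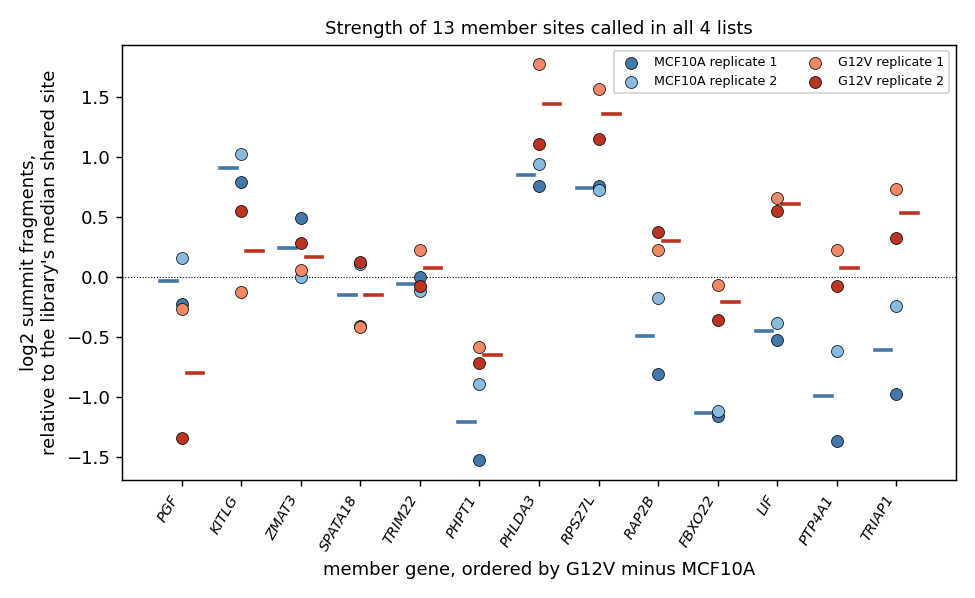
Relative strength of the 13 member sites of all 4 lists (x axis, ordered by difference) on the log2 scale (y axis), where 0 is the median shared site of each library. Points are libraries and bars are group means. From *TRIAP1* at the right back to *PHPT1* the G12V points lie above the MCF10A points, and at *KITLG* and *PGF* they lie below.

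*TRIAP1* showed the largest difference. It stood at -0.97 and -0.24 in the MCF10A replicates and at 0.74 and 0.33 in the G12V replicates, a log2 difference of 1.14 ± 0.28 (SE, limma, adjusted p = 0.00125). *PTP4A1* stood at -1.37 and -0.61 in MCF10A and 0.22 and -0.07 in G12V, a difference of 1.07 ± 0.28 (limma, adjusted p = 0.00229). In both genes the replicates of MCF10A were farther apart than those of G12V, and the groups did not overlap. *LIF* stood at -0.53 and -0.38 in MCF10A and 0.66 and 0.55 in G12V, a difference of 1.06 ± 0.27 (limma, adjusted p = 0.00229). *FBXO22* rose from -1.16 and -1.11 to -0.06 and -0.36, by 0.93 ± 0.28 (limma, adjusted p = 0.00752). In *LIF* and *FBXO22* the gap between groups was larger than the spread within either. *RAP2B* rose by 0.79 ± 0.28 (limma, adjusted p = 0.0238), from -0.81 and -0.18 to 0.22 and 0.37.

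In the other direction, *PGF* fell from -0.22 and 0.16 in MCF10A to -0.26 and -1.34 in G12V, a log2 difference of -0.77 ± 0.28 (limma, adjusted p = 0.0297). G12V replicate 1 was barely below MCF10A replicate 1, and without G12V replicate 2 the difference was -0.23 (adjusted p = 0.728). *KITLG* stood at 0.79 and 1.03 in MCF10A and -0.13 and 0.55 in G12V, a difference of -0.70 ± 0.28 (limma, adjusted p = 0.0451). Without G12V replicate 1 this was -0.36 (adjusted p = 0.507), and the call held in 1 of 8 alternatives. It was lost with a pseudocount of 5 (adjusted p = 0.0590), with the replicate block (0.0739) and with fold enrichment (0.851), and *PGF*, called in 2 of 8 alternatives, was lost with the block as well (0.0501). When fragments were scaled to depth without centring, the median over all 332 sites moved to 0.81 and the differences of *KITLG* and *PGF* turned to 0.11 and 0.040, so both are losses only relative to the median site.

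*PHLDA3*, *RPS27L* and *PHPT1* had differences of 0.59, 0.62 and 0.56, with both G12V libraries above both MCF10A libraries, but did not pass the threshold (limma, adjusted p = 0.0936, 0.0775 and 0.112). *TRIM22*, *SPATA18* and *ZMAT3* had differences of 0.13, 0.00391 and -0.07, within the spread of the replicates (limma, adjusted p = 0.746, 0.993 and 0.880).

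The calls depended on the libraries and on the measure. When MCF10A replicate 1 or MCF10A replicate 2 was left out, the calls were lost at member sites and at other sites alike. The median member difference was then 0.48 and 0.68 on the log2 scale. Leaving out a library leaves 1 in its group, which the fit assumes to vary like the other libraries. Without G12V replicate 1, *LIF*, *PTP4A1* and *TRIAP1* stayed called as higher and *PGF* as lower, all on G12V replicate 2 alone. Without G12V replicate 2, *FBXO22*, *LIF*, *PTP4A1* and *TRIAP1* stayed called as higher and *KITLG* as lower, all on G12V replicate 1 alone. With the fold enrichment over local background in place of fragments no member passed, while 5 of the 332 sites passed as higher and 7 as lower. At an unadjusted p under 0.05 (limma) there were then 5 of the 13 member sites, against 66 of the 332 sites. The 5 higher genes kept their direction under all 8 alternatives, and their lowest differences lay between 0.48 for *RAP2B* and 0.96 for *LIF*. Their calls were kept less often, in 3 of 8 alternatives for *RAP2B*, 4 for *FBXO22* and 5 each for *LIF*, *PTP4A1* and *TRIAP1*.

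Position and base composition moved with this difference. The 8 member sites within 1000 bp of a coding start had a median log2 difference of 0.60 and were all positive, with 3 of them called higher and 0 lower. The 5 member sites farther away had a median of -0.07, with 2 positive, 2 called higher and 2 lower. The 25 other sites of all 4 lists within 1000 bp of a start had a median of 0.65, with 22 positive, 11 called higher and 0 lower. The 290 other sites farther away had a median of -0.06, with 31 called higher and 40 lower. By GC content, the 36 other sites with 60% GC or more had a median of 0.54 and the 279 with less a median of -0.07, against 0.60 at 8 member sites and 0.13 at 5. Fragment length, taken as the width of the shortest peak of each list and not measured, was 147 and 113 bp in the MCF10A libraries. In the G12V libraries it was 279 and 180 bp. The part of position, base composition and fragment length in the member differences was not tested. *LIF*, *TRIAP1* and *FBXO22* are start-proximal sites of this kind, while *PTP4A1* and *RAP2B*, at 1262 and 1437 bp from their starts, lie just outside the limit.

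**Figure D4:**
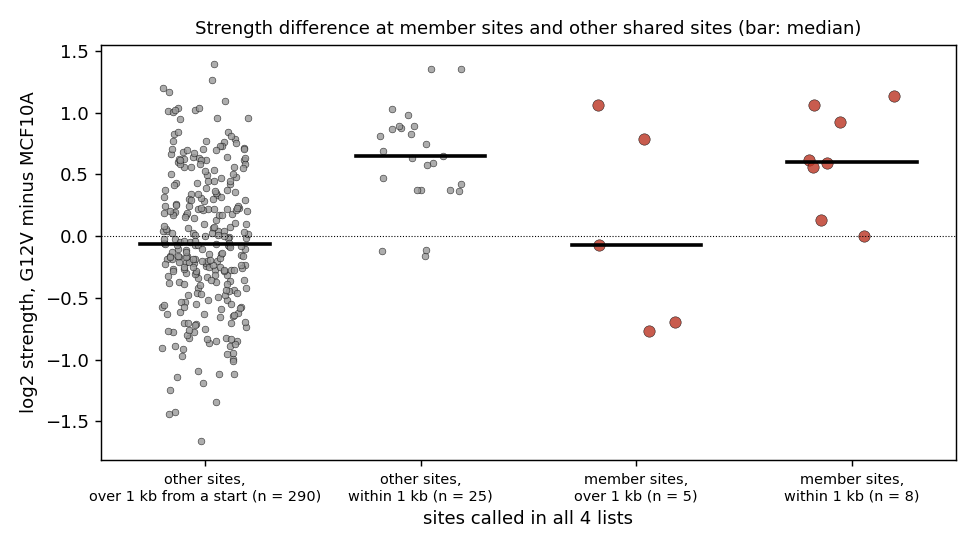
Log2 difference in relative strength, G12V minus MCF10A (y axis), at sites of all 4 lists, split by distance to the nearest coding start and by membership (x axis). Points are sites and bars are medians: -0.06 for other sites farther than 1 kb, 0.65 for other sites within 1 kb, -0.07 for member sites farther away, and 0.60 for member sites within 1 kb.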

How the data were processed

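The authors aligned reads to hg19 with Bowtie, kept unique alignments and ran MACS2 with its defaults on each library against an input. The deposited lists give the fold enrichment (a ratio), the −log10 p and −log10 q, and the summit offset. Columns of fold and −log10 p were solved for the fragments at each summit (whole numbers for at least 99.2% of peaks per library, to within 0.1 fragment where the caller had scaled the library) and, for a mappable genome of 2.7 Gb, for depth. Depth also rests on the fragment length, taken as the width of the shortest peak of each list. Fragments in G12V replicate 2 were divided by the scale of 0.721 by which it had been reduced to its input. The recovery, the element search and limma were tested on simulated data.

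Groups and replicate numbers came from the sample titles. Peaks sharing 1 bp formed a site, and 0 peaks ran past the end of a GRCh37 chromosome. Genes were those of GENCODE release 44 on GRCh37. The 47 members, the 30 comparison genes and the alternatives were chosen with earlier results of these data known. The lead site was the one called in most lists, then the one of smallest mean rank. Values in every library are given for members whose lead site was in all 4 lists or in both lists of 1 cell type alone, and sequences for those with an element. The spaced search was added after the data were seen.

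Strength was log2(fragments + 1), scaled to depth and centred on the median site, and tested with limma (version 3.58.1, R 4.3.3) at an adjusted p of 0.05. At 4 of 332 sites 1 library had no recovered value and the fit used the others. limma's standard errors were pooled over all sites. Replicate numbers were not taken as pairs, since deviations of libraries with the same number correlated at -0.05. Shares have exact (Clopper-Pearson) 95% intervals. Peaks carry no expression values, and expression was not analysed here.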

Additional observations from a re-analysis of the deposited data

How the results depend on the processing

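The number of members with a peak, 41, was 22 in lists of equal length and 25 to 41 when each library was left out, and the 13 members with a site in all 4 lists became 6 in lists of equal length. The 2 members with a site in G12V lists only became 0 at a −log10 q of at least 5, 4 in lists of equal length and 2 to 21 with a library left out. The 0 members with a site in MCF10A lists only became 0 to 2 with a library left out. For lists of equal length the share of all genes in these classes was not counted. With at most 2 mismatches 45.0% of lead sites held an element. From the 5′ end of the gene record the median distance was 956 bp. Leaving out a library gave a median percentile of 52.5 to 65.2. Other windows, overlap rules and element settings moved none of these counts past 1.5 times.

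The 48 higher and 42 lower shared sites, and the median member difference of 0.59, became 5, 7 and 0.33 with fold enrichment, and 85, 0 and 1.40 without centring, where *KITLG* and *PGF* turned to 0.11 and 0.040. With a library left out they ranged from 0 to 25, from 0 to 26, and from 0.41 to 0.71. With the replicate block they were 36, 30 and 0.59, and 5 member sites were called higher and 0 lower. Numbers did not mark shared cultures in the labels. Over the 13 member sites and 8 alternatives, pairs of a site and an alternative were counted. Of these, 29 lost a call with the sign kept and 3 gained one. Another 2, *KITLG* and *PGF* without centring, lost the call and changed sign. The other 70 kept their side of the threshold, but some changed sign at sites that were never called. *ZMAT3*, *SPATA18* and *TRIM22* were positive in 4, 6 and 7 of 8 alternatives. The cause was not tested. With 2 libraries per group, and depths from 9.26 to 33.2 M reads, weak sites are limited by the shallowest library.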
